A study of Mus musculus with 18 samples.

Results

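The genes described here are 6 of the 38392 in the deposited table, taken by their symbols: Il10, Ebi3 and Il12a, which encode cytokine subunits, and Il10ra, Il10rb and Il27ra, which encode receptor chains. They were followed through 18 RNA-seq libraries of T cells sorted from mouse small intestine, 3 libraries in each of 6 groups. In the epithelium (IEL) and in the lamina propria beneath it (LP), the sorted populations were DP cells (CD4+CD8α+), TR cells (CD4+Foxp3+) and SP cells, which carried CD4 but neither CD8α nor Foxp3. All 6 groups descend from the same kind of transferred cell, CD4+ T cells negative for CD8α and for the Foxp3 reporter from C57BL/6 TNa TNb RAG1-/- Foxp3GFP donors, whose T cells share 1 receptor. Each went into C57BL/6 TCRa-/- TCRb-/- hosts, which lack αβ T cells of their own but keep other lymphocytes, and was recovered 6 weeks later. The ages of the mice and the animals behind each library are not given in the labels. The p-values below therefore speak of differences between libraries, whose spread may be technical.

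Interleukin-10 (IL-10) is a suppressive cytokine that restrains inflammation of the gut, and mice without it develop colitis. It binds a receptor made of IL-10Rα, the ligand-binding chain encoded by Il10ra, and IL-10Rβ, encoded by Il10rb and shared with the receptors of IL-22 and of the lambda interferons. The kinases JAK1 and TYK2 then activate STAT3. Interleukin-35 is a heterodimer of EBI3 and the p35 chain encoded by Il12a, described as a product of regulatory T cells. EBI3 also pairs with the chain encoded by Il27 to form IL-27. The receptor of IL-27 joins IL-27Rα, the product of Il27ra, to gp130, the product of Il6st. IL-35 has been reported to signal in T cells through IL-12Rβ2 and gp130.

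The gate genes followed the sort. Foxp3 ran from 66.19 to 163.61 normalised counts in IEL TR and from 112.5 to 156.69 in LP TR, and was at most 39.88 in every DP and SP library. Cd8a was at least 3363.92 in DP libraries and at most 113.16 elsewhere. T cell markers (7 genes) summed to between 11386.08 and 16118.54 in every library. A normalised count is a read count scaled by 1 factor per library, from 5093955 to 8851347 recovered reads per library. Libraries of IEL TR resembled each other less (r of 0.804 to 0.873 across genes) than those of the other 5 groups (0.924 to 0.944). Comparisons with IEL TR were therefore fitted on the groups compared alone. A gene is called where limma's Benjamini-Hochberg adjusted p over 15472 tested genes is under 0.05. Log2 differences are on the log2(normalised count + 1) scale with ± as the standard error. Foxp3 itself was called in LP TR against LP SP (limma adjusted p = 0.00206) and in LP DP against LP TR (0.000315). It was not called in IEL TR against IEL SP (0.125) or in IEL DP against IEL TR (0.083). Of the 6 genes, 5 passed the filter of at least 10 in at least 3 libraries, each with at least 3 such libraries outside the TR groups, and Il12a did not.

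**Figure D1:**
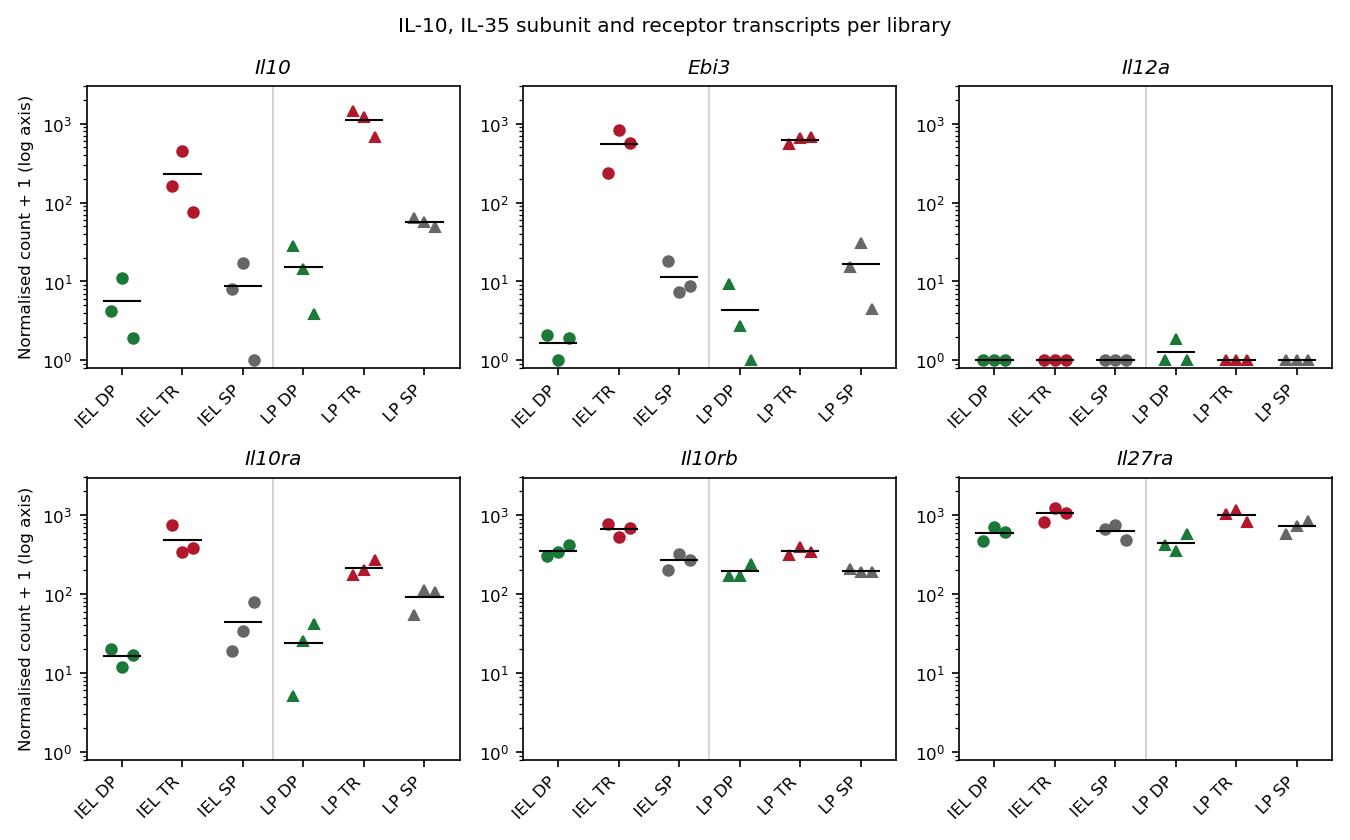
Normalised count + 1 (log axis) of each gene in each library, with circles for IEL and triangles for LP groups and a bar at the mean of 3 libraries. The TR libraries of Il10 and Ebi3 lie above every DP and SP library, Il12a has 1 read in 1 library, and Il27ra overlaps between neighbouring groups.

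Il10 (ENSMUSG00000016529, GRCm38 chromosome 1, 131019845 to 131024974, plus strand) was abundant in TR cells and highest in the lamina propria. Its normalised counts were 3.21, 9.93 and 0.93 in IEL DP and 26.8, 13.59 and 2.83 in LP DP. TR cells had 159.69, 455.78 and 74.94 in IEL TR and 1459.23, 1218.66 and 684.22 in LP TR. SP cells had 7.01, 15.97 and 0 in IEL SP and 62.1, 55.23 and 48.68 in LP SP. Every LP TR library was above every IEL TR library and every IEL TR library above every LP SP library. The LP SP libraries in turn lay above the LP DP libraries, while the LP DP, IEL SP and IEL DP ranges overlapped. Groups of T cells sorted in bulk do not tell fewer expressing cells from less RNA per cell.

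Ebi3 (ENSMUSG00000003206, chromosome 17, 55952640 to 55957022, plus strand) was high in TR cells of both sites and low in all others. It had 1.07, 0 and 0.93 normalised counts in IEL DP and 8.25, 1.7 and 0 in LP DP. TR cells had 236.38, 834.56 and 566.39 in IEL TR and 545.18, 660.32 and 672.04 in LP TR. SP cells had 17.02, 6.39 and 7.64 in IEL SP and 14.06, 29.85 and 3.48 in LP SP. The ranges of IEL TR and LP TR overlapped, both lay above all DP and SP libraries, and the IEL DP libraries lay below the IEL SP libraries. Per kilobase of exonic length, the group mean of Ebi3 was 2.69 times that of Il10 in IEL TR and 0.634 times that of Il10 in LP TR. Each IEL TR library had the Ebi3 level above the Il10 level, by 1.68 to 8.58 times, and in LP TR the ratio ran from 0.424 to 1.11.

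**Figure D2:**
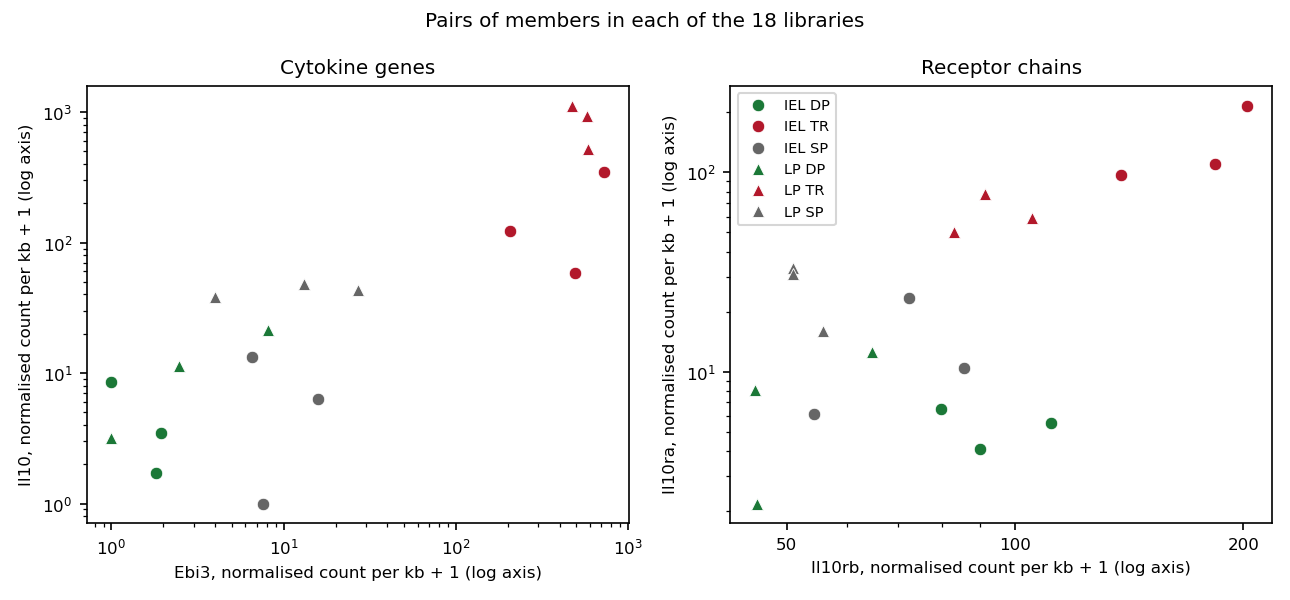
Il10 against Ebi3 and Il10ra against Il10rb in each of the 18 libraries, as normalised counts per kilobase + 1 on log axes, coloured by population with circles for IEL and triangles for LP. In the left panel the 6 TR libraries stand apart at the upper right, with the LP TR libraries above the IEL TR libraries; in the right panel the IEL TR libraries have the highest level of both chains.

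Il12a (ENSMUSG00000027776, chromosome 3, 68690644 to 68698547, plus strand), the gene of the p35 chain, was nearly undetected. It had 1 read in LP DP library 2 and 0 reads in the other 17 libraries, of 113361310 reads in all. A count of 0 allows up to 3 reads in a library, which is 2.06 to 3.73 normalised counts, and this limit covers counting error only. The other partner chain of EBI3, Il27, was at most 1.24 normalised counts in any library, and Il12b, which encodes the p40 partner of p35 in IL-12, at most 8.4. Ebi3, at 236.38 or more normalised counts in every TR library, was thus measured beside Il12a and Il27 levels at or under the limit of 3 reads.

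The starts of Ebi3 and Il12a are shown because these genes encode the chains of the same cytokine, and reads in TR cells came from Ebi3 and not from Il12a. The 250 bases before each RefSeq start (GRCm38.p6, plus strand, written 5′ to 3′) are given, with capitals for letters that match a searched motif. The promoter table held 1 start for Ebi3 and 2 for Il12a, and no start of the other 4 genes was used.
Ebi3, chr17:55952373-55952622: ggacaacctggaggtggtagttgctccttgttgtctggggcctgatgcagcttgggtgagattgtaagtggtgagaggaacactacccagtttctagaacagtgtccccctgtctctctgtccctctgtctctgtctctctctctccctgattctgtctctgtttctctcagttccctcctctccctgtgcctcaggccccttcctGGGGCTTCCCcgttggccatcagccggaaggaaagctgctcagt
Il12a, chr3:68690394-68690643: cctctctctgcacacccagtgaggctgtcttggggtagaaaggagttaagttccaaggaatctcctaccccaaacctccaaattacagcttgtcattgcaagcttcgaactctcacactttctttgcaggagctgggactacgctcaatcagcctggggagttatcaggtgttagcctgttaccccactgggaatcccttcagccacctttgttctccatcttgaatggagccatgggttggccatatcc
Il12a, chr3:68691174-68691423: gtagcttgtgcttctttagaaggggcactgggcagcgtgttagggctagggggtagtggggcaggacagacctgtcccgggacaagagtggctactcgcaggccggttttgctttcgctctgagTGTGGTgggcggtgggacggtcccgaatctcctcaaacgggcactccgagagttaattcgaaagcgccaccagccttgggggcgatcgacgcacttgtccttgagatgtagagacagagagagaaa
The window before Ebi3 has 1 match to the κB consensus, the site type of NF-κB factors, 44 bases before the start, and 7.3% of 32851 windows of the same length hold a match. The upstream window of Il12a has 2 CpG pairs and no match, and the downstream one has 15 CpG pairs and 1 match to TGTGGT, the Runt factor letters, 126 bases before its start, which 14.0% of windows hold. None of the 3 windows holds TGANTCA (AP-1), GTAAACA (forkhead), TTCNNNGAA (STAT) or TGCTGA (a Maf core) on either strand. Of all windows, 6.7%, 3.2%, 7.0% and 16.1% hold them in that order. A match is a run of letters and not a measured site, and the absence of one says nothing of binding elsewhere.

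Il10ra (ENSMUSG00000032089, chromosome 9, 45253837 to 45269149, minus strand), the ligand-binding chain, was highest in IEL TR. In TR cells its mean was higher in the epithelium and that of Il10 in the lamina propria, while in DP and SP cells both means were lower in the epithelium. Its normalised counts were 19.23, 10.76 and 15.81 in IEL DP and 4.12, 24.63 and 40.5 in LP DP. TR cells had 750.12, 337.54 and 380.79 in IEL TR and 171.99, 202.7 and 267.84 in LP TR. SP cells had 18.03, 33.01 and 78.05 in IEL SP and 52.72, 111.96 and 104.31 in LP SP. All IEL TR libraries were above all LP TR libraries and these above all LP SP libraries, while LP SP, IEL SP, LP DP and IEL DP overlapped with their neighbours in this order.

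Il10rb (ENSMUSG00000022969, chromosome 16, 91406164 to 91425834, plus strand), the shared chain, was expressed in every group over a narrow range. It had 300.27, 338.42 and 421.32 normalised counts in IEL DP and 170.08, 169.04 and 242.97 in LP DP. TR cells had 766.93, 521.08 and 695.35 in IEL TR and 312.62, 396.69 and 343.33 in LP TR. SP cells had 203.28, 322.61 and 272.34 in IEL SP and 208.55, 190.32 and 190.08 in LP SP. Only IEL TR was separated from its next group, IEL DP, and the other neighbours in the order of means overlapped. Per kilobase, the mean level of Il10ra was 0.0470 times that of Il10rb in IEL DP and 0.130 times in LP DP. The ratio was 0.806 in IEL TR and 0.664 in LP TR, and 0.176 in IEL SP and 0.497 in LP SP. Il10ra was the chain that varied more between groups, since its group means spanned 15.3 ± 4.26 to 489.5 ± 226.8 (SD, n = 3 each), against 194.0 ± 42.4 to 661.1 ± 126.4 for Il10rb.

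Il27ra (ENSMUSG00000005465, chromosome 8, 84030294 to 84042589, minus strand) had group means from 444.9 ± 113.0 to 1048.8 ± 209.7 (SD, n = 3 each), the narrowest span of the 5 tested genes as a ratio of highest to lowest mean, though not as a difference in counts. Its normalised counts were 472.31, 703.32 and 616.63 in IEL DP and 418.51, 347.43 and 568.81 in LP DP. TR cells had 826.81, 1243.59 and 1076.14 in IEL TR and 1031.96, 1152.76 and 826.66 in LP TR. SP cells had 661.92, 743.17 and 490.38 in IEL SP and 577.62, 735.92 and 850.74 in LP SP. All neighbours in its order of means overlapped. Its partner gp130, the product of Il6st, averaged 58.6 ± 17.4 in IEL DP and 84.2 ± 16.8 in LP DP. It averaged 145.0 ± 85.9 in IEL TR and 169.1 ± 89.2 in LP TR, and 50.04 ± 11.31 in IEL SP and 149.5 ± 40.7 in LP SP (SD, n = 3 each).

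Set against SP cells, TR cells of the lamina propria had more Ebi3, Il10 and Il10rb. Il10 averaged 1120.7 ± 396.7 in LP TR and 55.34 ± 6.71 in LP SP (SD, n = 3 each), 20.3 times as much. The log2 difference was 4.25 ± 0.94 (limma adjusted p = 0.0105). Ebi3 averaged 625.8 ± 70.1 in LP TR and 15.8 ± 13.3 in LP SP, a log2 difference of 5.61 ± 0.78 (limma adjusted p = 0.00041). Il10rb rose by a log2 difference of 0.83 ± 0.20 (limma adjusted p = 0.019). That call ended without LP TR library 2 (0.0785), LP SP library 2 (0.0556) or LP SP library 3 (0.0596). For Il10ra the log2 difference was 1.30 with a 95% interval of -0.14 to 2.73 (limma adjusted p = 0.275), although the libraries did not overlap. For Il27ra it was 0.48, from -0.00 to 0.97 (0.227). The count of 3 of 5 higher and 0 lower stands beside 9.5% of all tested genes called in either direction (5.03% higher). The median difference of the 5 genes was 1.30, against -0.01 over all genes.

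In the epithelium the same comparison called Ebi3 and Il10ra higher in TR cells. Ebi3 averaged 545.8 ± 299.6 in IEL TR and 10.35 ± 5.81 in IEL SP (SD, n = 3 each), 52.7 times as much. The log2 difference was 5.53 ± 0.60 (limma adjusted p = 0.0121). Il10ra averaged 489.5 ± 226.8 in IEL TR and 43.0 ± 31.2 in IEL SP, a log2 difference of 3.63 ± 0.60 (limma adjusted p = 0.0409). Il10 averaged 230.1 ± 199.95 in IEL TR and 7.66 ± 8.005 in IEL SP, and the libraries did not overlap. IEL SP held 22 reads of Il10 in all, so the log2 difference of Il10 depends on the added 1. Il10 did not pass at a log2 difference of 5.11 ± 1.20 (limma adjusted p = 0.0947). Nor did Il10rb at 1.32 ± 0.25 (0.0559) or Il27ra at 0.73 ± 0.23 (0.181). Under 3 of 10 other settings Il10 and Il10rb did pass. For all 18 libraries in 1 fit the limma adjusted p was 0.00333 and 0.000883, and with library weights 0.0199 and 0.00875. With DESeq2 the adjusted p was 0.000558 and 0.000115. With 1 library left out, 0 of 6 fits called either gene. The 2 of 5 called, both higher, stand beside 2.91% of all genes called (1.49% higher). The median of the 5 was 3.63, against -0.05. Neither call was stable. With the replicate number as a block the limma adjusted p was 0.0922 for Ebi3 and 0.14 for Il10ra, and with no filter on low counts 0.0629 and 0.155. Il10ra was lost on leaving out any 1 of the 6 libraries (0.0528 to 0.172), and Ebi3 was lost without IEL SP library 1 (0.0595), library 2 (0.0742) or library 3 (0.0761).

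Whether the TR difference was of another size in the epithelium than in the lamina propria was tested as an interaction, in which limma called 0 of the 5 genes and 0.168% of all genes. At an unadjusted p under 0.05 there were 8.56% of all genes and 1 of the 5, Il10ra, whose log2 difference was larger in the epithelium by 2.33 ± 0.73 (limma adjusted p = 0.396), and edgeR and DESeq2 called 0. The pass of Il10ra in the epithelium alone is thus not shown to be a difference between the sites.

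DP cells had less of these transcripts than TR cells, with all 5 called in the lamina propria and 3 in the epithelium. In the lamina propria the log2 difference was -7.74 ± 0.78 for Ebi3 (limma adjusted p = 1.66e-05) and -6.53 ± 0.94 for Il10 (0.000341). LP DP held 10 reads of Ebi3 in all, so its value depends on the added 1. The difference was -3.59 ± 0.67 for Il10ra (0.00239), -1.19 ± 0.23 for Il27ra (0.00277) and -0.87 ± 0.20 for Il10rb (0.0113). Il10 averaged 14.4 ± 12.01 in LP DP and 1120.7 ± 396.7 in LP TR. Il27ra averaged 444.9 ± 113.0 in LP DP and 1003.8 ± 164.9 in LP TR (SD, n = 3 each). The libraries of both groups were apart for each of the 5, and the share of all genes with libraries so apart was not counted. All 5 had an unadjusted p under 0.05 by limma, as had 25.1% of all genes. Of all genes, 13.2% were called (7.76% lower), and the median of the 5 was -3.59, against 0.01 over all genes. The call of Il10rb ended without LP TR library 2 (limma adjusted p = 0.0511).

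In the epithelium 3 of the 5 fell, beside 4.14% of all genes called (2.36% lower). Ebi3 differed by -8.25 ± 0.59 on the log2 scale (limma adjusted p = 0.00336), a value that depends on the added 1, since IEL DP held 2 reads of Ebi3 in all. As a ratio of means IEL DP stood at 0.122% of IEL TR, with an exact Poisson interval of 0.0148% to 0.441% for those 2 reads. Il10ra averaged 15.3 ± 4.26 in IEL DP and 489.5 ± 226.8 in IEL TR (SD, n = 3 each), a log2 difference of -4.86 ± 0.42 (limma adjusted p = 0.00516). Il10 averaged 4.69 ± 4.68 in IEL DP, with 16 reads in all, and 230.1 ± 199.95 in IEL TR. Its log2 difference was -5.31 ± 0.90 (limma adjusted p = 0.0344), a value that also depends on the added 1. That call ended without IEL DP library 1 (0.143), 2 (0.0768) or 3 (0.127) or IEL TR library 1 (0.0546) or 2 (0.0662), and with edgeR (0.0584). With no filter on low counts none of the 3 passed, at 0.091 for Ebi3, 0.0975 for Il10ra and 0.307 for Il10. Il10rb at -0.90 ± 0.22 (0.0963) and Il27ra at -0.81 ± 0.23 (0.128) did not pass. The median of the 5 was -4.86, against 0.06 over all genes. These comparisons share their TR libraries with those against SP cells, so the DP and SP values are 2 readings against the same libraries.

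**Figure D3:**
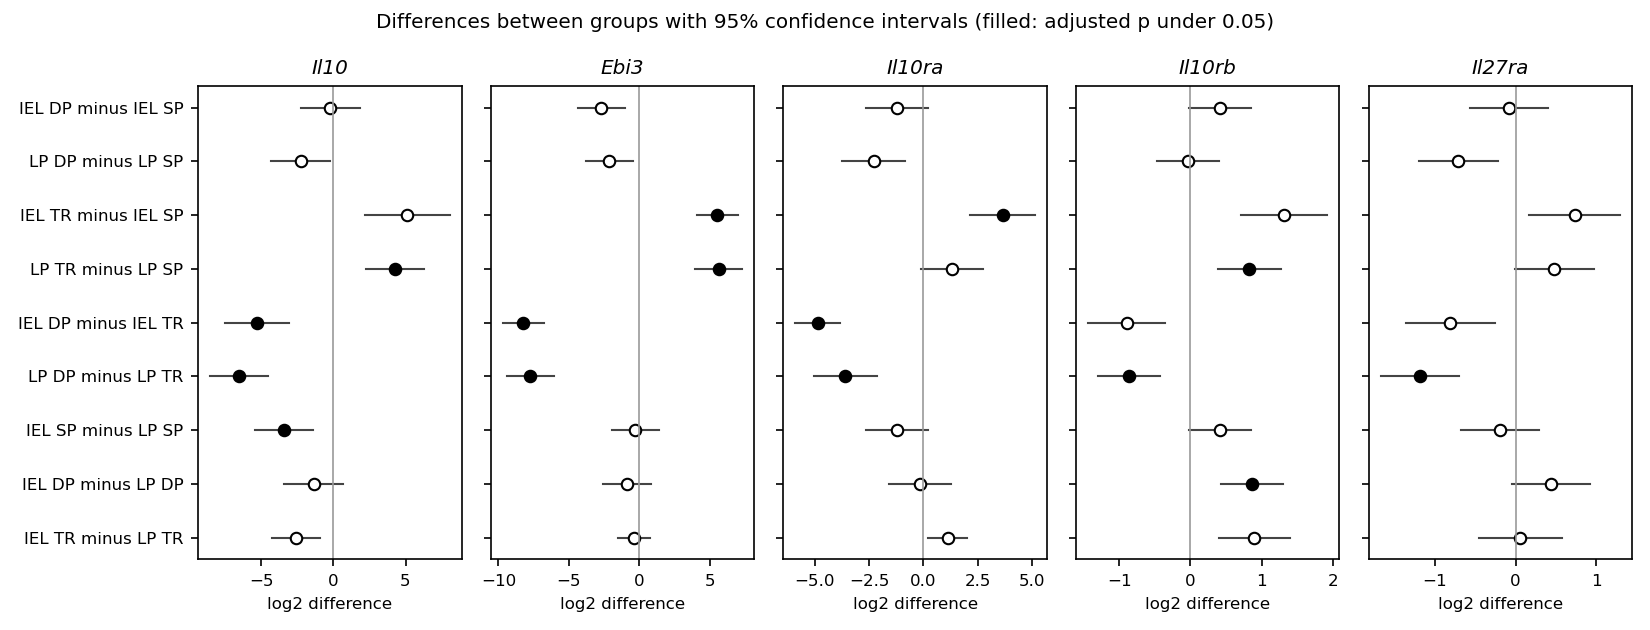
Log2 difference (first-named group minus second) of the 5 tested genes in 9 comparisons, with 95% confidence intervals and filled points at a limma adjusted p under 0.05; the axes differ in range between genes. Ebi3 and Il10 have the largest differences in the rows that set TR cells against DP or SP cells, and no point is filled in the rows of DP minus SP.

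Between DP and SP cells none of the 5 genes was called at either site. In the lamina propria Ebi3 averaged 3.32 ± 4.36 in LP DP and 15.8 ± 13.3 in LP SP. Il10 averaged 14.4 ± 12.01 in LP DP and 55.34 ± 6.71 in LP SP, while Il10ra averaged 23.1 ± 18.2 in LP DP and 89.7 ± 32.2 in LP SP (SD, n = 3 each). The log2 difference was -2.13 for Ebi3 (95% interval -3.80 to -0.46, limma adjusted p = 0.336) and -2.28 for Il10 (-4.29 to -0.26, 0.426). It was -2.29 for Il10ra (-3.72 to -0.86, 0.175) and -0.71 for Il27ra (-1.19 to -0.22, 0.239). For Il10, Il10ra and Il27ra the LP DP libraries lay below all LP SP libraries, which was not counted over all genes. Limma called 0 of the 5 beside 0.769% of all genes. At the same time 4 of the 5 had an unadjusted p under 0.05, as had 9.95% of all genes, and edgeR and DESeq2 called 0. In the epithelium limma called 0 of the 5 beside 0.213% of all genes. There 1 of the 5, Ebi3, had an unadjusted p under 0.05, as had 6.58% of all genes, and edgeR and DESeq2 called 0. Ebi3 had 2 reads over IEL DP and 32 over IEL SP, a log2 difference of -2.72 (95% interval -4.39 to -1.05, limma adjusted p = 0.364). Il10 was at -0.20 (-2.22 to 1.81, 0.992). The interaction of DP minus SP with site called 0 of the 5 and 0.0% of all genes, with 0 of the 5 at an unadjusted p under 0.05 and 0 by edgeR and DESeq2.

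Between the sites, Il10 was lower in epithelial SP cells than in lamina propria SP cells, and Il10rb was higher in epithelial DP cells than in lamina propria DP cells. Il10 averaged 7.66 ± 8.005 in IEL SP and 55.34 ± 6.71 in LP SP (SD, n = 3 each), a log2 difference of -3.45 ± 0.94 (limma adjusted p = 0.0337). It was the 1 of 5 called, beside 9.91% of all genes (5.66% lower). The call ended in a fit of the 2 groups alone (0.0829) and without IEL SP library 1 (0.0558) or 3 (0.12), or LP SP library 1 (0.0825), 2 (0.0755) or 3 (0.0753). Without IEL SP library 3, which had 0 reads of Il10, the difference was -2.27. Il10rb averaged 353.3 ± 61.9 in IEL DP and 194.0 ± 42.4 in LP DP, a log2 difference of 0.87 ± 0.20 (limma adjusted p = 0.0164). It was the 1 of 5 called, beside 9.51% of all genes (4.1% higher). That call ended in a fit of the 2 groups alone (0.0597) and without IEL DP library 3 (0.0769) or LP DP library 1 (0.0611) or 2 (0.0684). At 1 of 5 each, and with so many of all genes called, these counts say little of the genes as a group.

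For TR cells limma called 0 of the 5 between the sites, beside 0.601% of all genes. At an unadjusted p under 0.05 there were 3 of the 5 and 13.2% of all genes, while edgeR called 0 and DESeq2 called 2. Those 3 had libraries that did not overlap, which was not counted over all genes. Il10 averaged 230.1 ± 199.95 in IEL TR and 1120.7 ± 396.7 in LP TR (log2 difference -2.59, 95% interval -4.28 to -0.90, limma adjusted p = 0.202). Il10ra averaged 489.5 ± 226.8 in IEL TR and 214.2 ± 48.9 in LP TR (1.12, from 0.23 to 2.01, 0.281). Il10rb averaged 661.1 ± 126.4 in IEL TR and 350.9 ± 42.5 in LP TR (0.90, from 0.40 to 1.40, 0.146). DESeq2 called Il10 (adjusted p = 0.00992) and Il10rb (adjusted p = 0.00372). Ebi3 at -0.37 (-1.51 to 0.77, limma adjusted p = 0.81) and Il27ra at 0.06 (-0.46 to 0.57, 0.944) had intervals on both sides of 0.

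Markers of other cells moved with some of these groups. B and plasma cell markers (8 genes) summed to 8.4, 110.68 and 300.61 in IEL TR and 103.85, 956.29 and 146.1 in LP TR. They were at most 55.56 in every DP and SP library. Mzb1 and Jchain were at 0 in IEL TR, and Jchain was the highest of the list in LP TR, at 471.3 in its highest library. Without LP TR library 2, where the sum was 956.29, the difference between LP TR and LP SP was 5.57 for Ebi3 (limma adjusted p = 0.0025) and 4.16 for Il10 (0.0379). Without that library the Il10rb call ended against LP SP (0.0785) and in LP DP against LP TR (0.0511), as given above. In IEL TR, library 1 had the lowest B cell sum (8.4) and the lowest myeloid sum (1.05). It had the highest Il10ra and Il10rb of the 3, and the lowest Ebi3 and Il27ra. Myeloid markers (8 genes) ran from 1.05 to 99.33 in IEL TR and from 59.69 to 118.1 in LP TR, and from 40.45 to 99.14 in IEL SP and 154.16 to 569.48 in LP SP, with Cd14 at 0 in both TR groups. Gamma-delta T cell markers (4 measured) summed to at most 8.7 in TR libraries, 670.23 to 1775.5 in DP and 165.2 to 886.9 in SP libraries. Tcrg-C4, a receptor constant region, was the highest of the list, with means of 1534.6 in IEL DP and 679.0 in LP DP. Its means were 748.4 in IEL SP and 176.0 in LP SP. Sox13, which is not a receptor gene, was at 0 in every DP and SP library. Innate lymphoid markers (8 genes, among them Areg and Il23r, which pathway lists here also hold) summed to 1427.13 to 2129.54 in IEL TR and 9600.24 to 10358.65 in LP TR. They summed to 285.54 to 778.46 in DP and 641.89 to 942.31 in SP libraries, with Areg the highest in both TR groups and Ncr1 at 0 there. Epithelial markers (8 genes) summed to 341.45 to 431.33 in IEL TR and 170.37 to 272.71 in LP TR. Their range was 374.81 to 1116.08 in IEL DP and 226.81 to 434.14 in LP DP, and 338.59 to 613.85 in IEL SP and 120.18 to 375.54 in LP SP. Within that list Epcam averaged 329.6 ± 37.0 in IEL TR and 61.4 ± 36.7 in IEL SP, and 195.8 ± 51.7 in LP TR and 59.7 ± 31.8 in LP SP. Cdh1 was low in TR cells, at 5.46 ± 3.46 in IEL TR and 314.6 ± 94.9 in IEL SP, and 4.79 ± 2.32 in LP TR and 186.7 ± 94.8 in LP SP (SD, n = 3 each). Krt20 was at 0 in IEL TR. Stromal markers (6 genes) were at most 128.66. Beyond these values the part of other cells in the results was not tested.

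Genes that overlap the 6 were counted apart from them, and the use of strand in counting is not given in the sources used here. Gm16712, annotated antisense to Ebi3 with overlapping exons, had 5.25, 31.62 and 24.4 normalised counts in IEL TR and 29.21, 60.93 and 98.62 in LP TR, at most 11.88 elsewhere. Its reads and those of Ebi3 cannot be told apart if strand was not used. Palm3, on the other strand across exons of Il27ra, had 156.54, 4.12 and 50.54 in IEL TR and at most 18.03 elsewhere. Gm21970, on the strand of Il10rb, was at most 2.49.

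Other ligand and receptor genes of the IL-10 and IL-12 families were mostly at low counts: 6 of 18 passed the filter. Il12rb2, the IL-12 receptor chain also named for IL-35, was lower in TR cells, where Ebi3 was higher. It averaged 54.96 ± 25.80 in LP TR and 737.8 ± 174.0 in LP SP (SD, n = 3 each), a log2 difference of -3.80 ± 0.33 (limma adjusted p = 6.05e-06). It averaged 36.9 ± 17.7 in IEL TR and 252.1 ± 55.7 in IEL SP, a log2 difference of -2.82 ± 0.42 (limma adjusted p = 0.0295). It was higher in LP DP than in LP TR, by 2.53 ± 0.33 (limma adjusted p = 0.00014), and lower in IEL SP than in LP SP, by a log2 difference of -1.54 ± 0.33 (0.00796). Il12rb1, the other IL-12 receptor chain, was lower in DP than in TR cells of the lamina propria, with 137.4 ± 33.5 in LP DP and 459.8 ± 232.1 in LP TR (limma adjusted p = 0.00929). Il22, a family cytokine that signals through Il10rb, averaged 4.47 ± 7.74 in LP DP and was at 0 in all LP TR libraries, against 252.4 ± 240.2 in LP SP (limma adjusted p = 0.042 and 0.00208). In IEL SP it was at 13.4 ± 22.2 (0.0168 against LP SP). Il6st was lower in IEL SP than in LP SP, by a log2 difference of -1.55 ± 0.42 (limma adjusted p = 0.0323). Il20rb, a chain of the IL-20 receptors, was at 30.003 ± 13.686 in IEL DP and 2.15 ± 1.80 in IEL TR (0.0389). Of the 6 tested, 0 rose and 2 fell in LP TR against LP SP, beside 4.47% of all genes lower. In IEL TR against IEL SP, 0 rose and 1 fell, beside 1.42% lower. The medians were -1.89 and -2.04, against -0.01 and -0.05 over all genes.

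Among 7 kinases, STAT factors and feedback inhibitors, Jak2, a kinase of many cytokine receptors, was higher in TR than in SP cells of the lamina propria. It averaged 1693.5 ± 206.6 in LP TR and 801.6 ± 259.6 in LP SP (limma adjusted p = 0.00329). The list thus counts 1 of 7 higher in LP TR and 0 of 7 higher in IEL TR, with 0 lower in either, beside 5.03% and 1.49% of all genes higher. A count of 1 of 7 says little of the list. Stat3, the factor that the IL-10 receptor activates, was at 2362.1 ± 465.2 in LP TR and 1696.0 ± 229.9 in LP SP (limma adjusted p = 0.077), and at 1104.1 ± 135.9 in IEL TR and 971.1 ± 85.2 in IEL SP (0.6). Socs3, a STAT3-induced feedback inhibitor, was lower in the epithelium in SP and in DP cells. It averaged 36.7 ± 18.1 in IEL SP and 643.6 ± 147.4 in LP SP (log2 difference -4.17 ± 0.62, limma adjusted p = 0.000677). It averaged 27.4 ± 21.3 in IEL DP and 259.1 ± 75.6 in LP DP (-3.65 ± 0.62, 0.0022). In TR cells it did not pass, with 274.8 ± 281.4 in IEL TR and 332.8 ± 91.4 in LP TR (limma adjusted p = 0.728). Stat3 and Jak2 were also lower in IEL SP than in LP SP (limma adjusted p = 0.00452 and 0.000775) and in IEL DP than in LP DP (0.00935 and 0.00186). Jak2 was lower in IEL TR than in LP TR as well (limma adjusted p = 0.0238). That last call ended with no filter on low counts, where limma called 0 genes in the comparison. Tyk2 alone of the 7 was higher in IEL DP than in LP DP (0.0356), beside 4.1% of all genes higher. Jak2 was the 1 gene of this list lower in DP than in TR cells, in the epithelium (limma adjusted p = 0.049) and in the lamina propria (0.000176). Beside it, 2.36% and 7.76% of all genes were lower, in that order.

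Of 9 transcription factors known to act on Il10, Maf and Gata3 were higher in TR cells at both sites. Maf, a direct activator of Il10, averaged 4048.0 ± 336.4 in LP TR and 1382.9 ± 242.7 in LP SP (log2 difference 1.56 ± 0.16, limma adjusted p = 3.68e-05). It averaged 3613.0 ± 393.8 in IEL TR and 531.9 ± 76.5 in IEL SP (2.77 ± 0.15, limma adjusted p = 0.00152). It was lower in DP than in SP cells, at 257.6 ± 50.97 in LP DP (log2 difference -2.42 ± 0.16, limma adjusted p = 6.03e-06) and 135.3 ± 6.2 in IEL DP (-1.96 ± 0.16, limma adjusted p = 4.51e-05). Maf was the 1 gene of the list called in those comparisons, beside 0.517% of all genes lower in the lamina propria and 0.168% in the epithelium. Gata3 averaged 2798.5 ± 1320.0 in LP TR and 753.6 ± 190.7 in LP SP (limma adjusted p = 0.000926), and 1556.6 ± 368.6 in IEL TR and 416.6 ± 23.1 in IEL SP (0.0133). In LP TR against LP SP, Nfil3 was also higher (1.89 ± 0.41, limma adjusted p = 0.01) and Bhlhe40, a repressor of Il10, was lower, at 1203.4 ± 374.1 in LP TR and 2663.2 ± 432.4 in LP SP (0.00793). In all, 3 of 9 rose and 1 fell in the lamina propria, beside 5.03% of all genes higher and 4.47% lower. In the epithelium 2 rose and 0 fell, beside 1.49% higher and 1.42% lower. DP cells had less Maf and Gata3 than TR cells at both sites, the 2 of 9 called there. Of all genes, 2.36% were lower in the epithelium and 7.76% in the lamina propria.

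Between the sites, 7 of 9 of these factors were lower in IEL SP than in LP SP and 7 of 9 lower in IEL DP than in LP DP, with 0 higher, beside 5.66% and 5.42% of all genes lower. The medians were -1.17 and -1.05, against 0.025 and 0.052 over all genes. Bhlhe40 averaged 200.1 ± 33.9 in IEL SP and 2663.2 ± 432.4 in LP SP (log2 difference -3.73 ± 0.25, limma adjusted p = 4.24e-07). It averaged 152.0 ± 46.4 in IEL DP and 1446.5 ± 145.4 in LP DP (-3.29 ± 0.25, limma adjusted p = 1.57e-06). Maf was lower in IEL SP than in LP SP by a log2 difference of -1.37 ± 0.16 (limma adjusted p = 0.000101), and so was Nfil3 (-2.84 ± 0.41, 0.000587). Il10 was also called there, but in only 1 of 6 fits with 1 library left out. Maf was lower in IEL DP than in LP DP too (-0.91 ± 0.16, limma adjusted p = 0.00325). Il10 did not pass in that comparison (-1.38 ± 0.94, limma adjusted p = 0.401). A link between Maf and Il10 was not tested. In TR cells 1 of 9, Bhlhe40, was lower in the epithelium, beside 0.569% of all genes lower. It averaged 285.4 ± 17.1 in IEL TR and 1203.4 ± 374.1 in LP TR (limma adjusted p = 0.0362). That call ended with no filter on low counts, where limma called 0 genes in this comparison. For Maf the log2 difference between IEL TR and LP TR was -0.17 ± 0.12 (0.631).

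**Figure D4:**
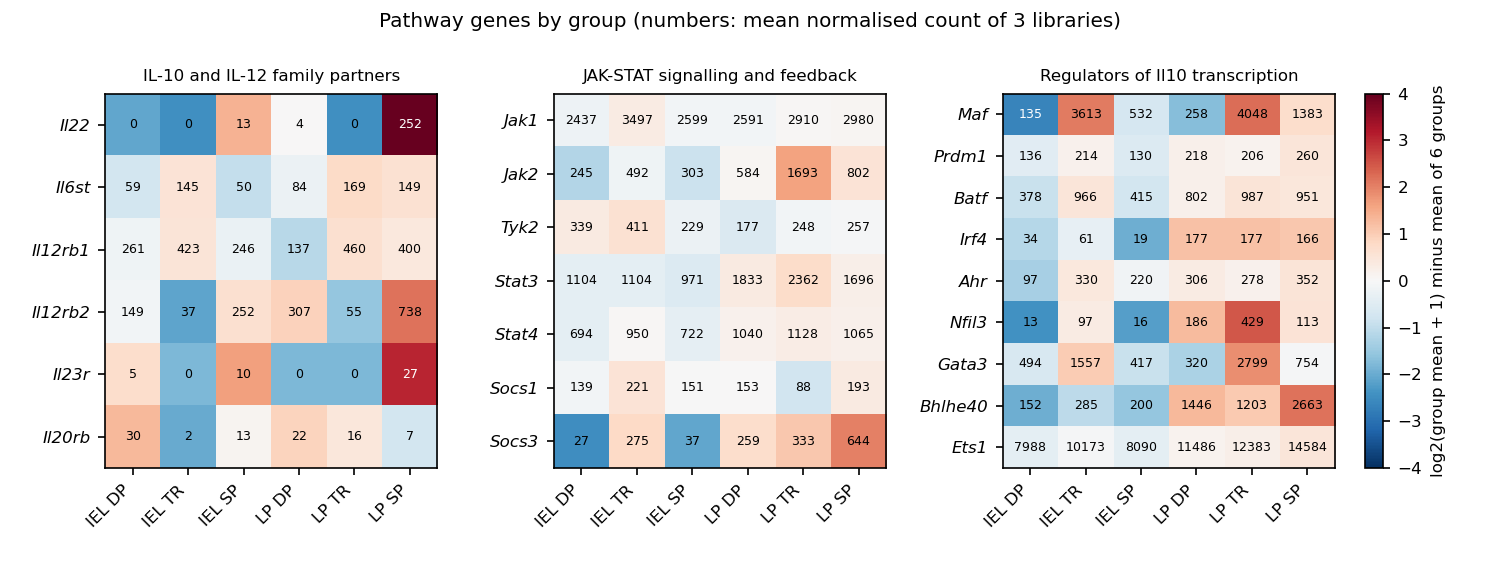
Mean normalised count of 3 libraries (numbers) for the tested genes of 3 pathway lists, coloured by log2(group mean + 1) minus the mean of the 6 groups. Maf is highest in the IEL TR and LP TR columns, Il12rb2 is lowest there, and Bhlhe40 and Socs3 are lower in IEL DP and IEL SP than in LP DP and LP SP.

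Of 12 other genes listed as suppressive mediators of T cells, 8 rose and 0 fell in LP TR against LP SP, beside 5.03% of all genes higher and 4.47% lower. In IEL TR against IEL SP, 5 rose and 0 fell, beside 1.49% higher and 1.42% lower. The median log2 differences were 1.40 and 2.31, against -0.01 and -0.05 over all genes. The list was chosen with earlier results of these data known, so its counts are a description and not a test. Areg, an epidermal growth factor receptor ligand tied to tissue repair, averaged 8501.3 ± 361.7 in LP TR and 105.1 ± 22.6 in LP SP (log2 difference 6.35 ± 0.60, limma adjusted p = 1.6e-05). It averaged 767.4 ± 461.4 in IEL TR and 8.51 ± 2.24 in IEL SP (6.21 ± 0.48, limma adjusted p = 0.005). Ctla4, an inhibitory receptor, averaged 13737.0 ± 3099.0 in LP TR and 2515.1 ± 551.6 in LP SP (limma adjusted p = 7.59e-05). It averaged 4162.4 ± 607.6 in IEL TR and 376.4 ± 167.1 in IEL SP (0.0071). Fgl2, a secreted suppressive protein, rose in LP TR (1.86 ± 0.21, limma adjusted p = 8.76e-05). Il2ra, the high-affinity IL-2 receptor chain, rose in IEL TR (1.93 ± 0.23, limma adjusted p = 0.0142). Between sites, Areg and Ctla4 were lower in IEL TR than in LP TR (limma adjusted p = 0.0327 and 0.0362). They were the 2 of 12 called there, beside 0.569% of all genes lower. Both calls ended with no filter on low counts, where limma called 0 genes in this comparison. In LP DP against LP TR, 1 of the 12 was higher and 7 were lower, beside 5.42% of all genes higher and 7.76% lower. In IEL DP against IEL TR, 0 were higher and 6 lower, beside 1.78% higher and 2.36% lower. The 1 higher was Lag3, an inhibitory receptor. It averaged 148.2 ± 58.4 in LP DP and 37.6 ± 11.2 in LP TR (log2 difference 1.92 ± 0.49, limma adjusted p = 0.0173). Its difference did not pass between LP TR and LP SP, at 0.28 ± 0.49 (limma adjusted p = 0.796). Nor did it between IEL TR and IEL SP, at -1.53 ± 0.67 (0.333). Gzmb, a granule protease, was higher in DP than in SP cells of the lamina propria, with 10995.0 ± 1866.7 in LP DP and 3468.3 ± 611.5 in LP SP (limma adjusted p = 0.0455), and Areg was lower, at 18.4 ± 20.8 in LP DP and 105.1 ± 22.6 in LP SP (0.0397).

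The genes whose levels followed each of the 5 tested genes most closely over the 18 libraries, among 9416 candidates, are given as a description. The libraries share groups, so r over all 18 also holds the distance of the TR groups from the rest. For Il10 they were Sla, an adaptor of receptor signalling (Pearson r = 0.96), Lztfl1 (0.939) and H2-Q7 (0.933). Over the 12 DP and SP libraries alone r was 0.872, 0.837 and 0.831, and within the 6 TR libraries 0.928, 0.734 and 0.78. Sla averaged 1248.4 ± 471.7 in IEL DP and 1548.4 ± 241.6 in LP DP (SD, n = 3 each). It averaged 3486.7 ± 1042.9 in IEL TR and 4817.2 ± 690.9 in LP TR, and 1413.5 ± 398.8 in IEL SP and 2548.6 ± 518.1 in LP SP. For Ebi3 they were Rgs10, a regulator of G protein signalling (0.969), Ass1, argininosuccinate synthase (0.961), and Folr4, a folate receptor family gene known from regulatory T cells (0.956). Over the 12 DP and SP libraries r was 0.785, 0.895 and 0.805, and within the 6 TR libraries it was 0.412, -0.051 and 0.576. Rgs10 averaged 3363.0 ± 334.6 in IEL TR and 3110.1 ± 270.8 in LP TR, and at most 1166.2 ± 104.2, in LP SP, in the other groups. For Il10ra they were Spint2, a protease inhibitor (0.932), Tecpr1 (0.932) and Vamp5 (0.924). Over the 12 DP and SP libraries r was 0.77, 0.923 and 0.779, and within the 6 TR libraries 0.894, 0.264 and 0.75. For Il10rb they were Akr1c12, of a family of similar reductases (0.926), Cd3d, a chain of the T cell receptor complex (0.911), and Tmem254b (0.883). Their r was 0.837, 0.827 and 0.699 over the 12 DP and SP libraries, and 0.856, 0.862 and 0.863 within the 6 TR libraries. For Il27ra they were Ighm, the constant region of IgM (0.885), Ly6e (0.877) and Mthfs (0.873). Their r was 0.788, 0.668 and 0.783 over the 12 DP and SP libraries, and 0.588, 0.707 and 0.319 within the 6 TR libraries. Ighm averaged 980.0 ± 429.5 in IEL TR and 541.7 ± 131.2 in LP TR, and at most 18.4 ± 13.6, in LP SP, in the other groups. It is not in the list of B and plasma cell markers above, and the cells that gave its reads were not tested. H2-Q7, Akr1c12 and Tmem254b have close copies in the genome, whose reads the counting could have split.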

How the data were processed

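The authors deposited 1 table of 38392 Ensembl genes in 18 libraries. The deposited signal is a read count scaled by 1 factor per library, settled from the values themselves: 100% of values above 0 were whole multiples of 1 step (tolerance 0.1 of a step). How the factors were computed is not given in the sources used here. TopHat, HTSeq and mm10 (GRCm38) are named in the submitters' processing notes, without versions.

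Before testing, 1 was added and log2 taken. The 15472 genes that reached 10 in 3 or more libraries were tested with limma 3.58.1 in R 4.3.3 (trended, robust variance; Benjamini-Hochberg adjusted p under 0.05 over all tested genes). Comparisons without IEL TR used the 15 libraries of the other 5 groups; those with IEL TR used the groups compared. There were 9 pairwise comparisons and 2 interactions. Exact permutation of 3 against 3 cannot go below 0.1 and was not used. Alternatives were other scalings, a pseudocount of 5, no filter, other sets of libraries, weights, a replicate block, edgeR 4.0.16 and DESeq2 1.42.0 on recovered reads, and each library left out. Gene positions are from GENCODE M21, where 36639 identifiers were found.

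The 6 genes, the pathway and marker lists and the tests were chosen with earlier results of these data known. Named genes are the 6, those called among the 3 smallest p-values of each pathway list in each pairwise comparison (examples of these are printed), and the 3 genes with the highest r with each of the 5 tested genes among those with a group mean of at least 50, without predicted genes. Stat3 in TR cells and the overlapping genes were named for their role. Tyk2, Nfil3 and Lag3 were named after their values were seen, to complete a count. Trdc was not matched in the table. A gene of the kinase and STAT list is not reported here. Intervals and limits from read counts cover counting error only.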

Additional observations from a re-analysis of the deposited data

How the results depend on the processing

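Over 585 differences of the 5 tested genes under another setting, 556 kept their direction and side of the threshold. Leaving out 1 library did so in 343 of 390. Most of these differences were not called in the main fits, and those that stayed so with the same sign count as kept. The shares thus say little of how firm the calls were. A call was lost in 12 of the 585 and in 26 of the 390, and gained in 13 and 0. Counts of pathway list genes called stayed within 1.5 times the main count in 647 of 780 cases, both kinds of change included. The number of the 5 tested genes called in IEL TR against IEL SP was 2; it was 0 with no filter and with the replicate block, 1 with edgeR, 4 with all 18 libraries in 1 fit, with library weights and with DESeq2, and 0 to 1 with 1 library left out. In IEL DP against IEL TR it was 3, and 0 with no filter, 5 with all 18 libraries and with DESeq2. In IEL SP against LP SP it was 1, and 0 with all 18 libraries or only the groups compared (0 to 1 with 1 library left out); in IEL DP against LP DP it was 1, and 0 with only the groups compared (0 to 1). In IEL TR against LP TR it was 0, and 1 with all 18 libraries and 2 with DESeq2. The filter changes the number of genes tested, from 15472 to 29986; otherwise the cause was not tested.

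No called difference changed sign. In the interaction of TR minus SP with site, Il10 (0.86) was -0.0802 with a pseudocount of 5, and Ebi3 (-0.09) was 0.0036 with library weights, 0.48 with edgeR and 0.45 with DESeq2. With 1 library left out, signs also changed for Il10 (-1.39 to 0.66) and Il27ra (-0.25 to 0.0811) in IEL DP against IEL SP, Il10rb in LP DP against LP SP (-0.21 to 0.0515), Ebi3 in IEL SP against LP SP (-1.04 to 0.35), Il10ra in IEL DP against LP DP (-1.04 to 0.47), Ebi3 (-0.77 to 0.14) and Il27ra (-0.0765 to 0.22) in IEL TR against LP TR, Ebi3 in the DP interaction (-1.37 to 0.23), and Il10 (-0.33 to 1.72) and Ebi3 (-0.72 to 0.67) in the TR interaction.

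Over all genes, calls in IEL TR against IEL SP ran from 63 (replicate block) to 1799 (all 18 libraries) around 450. In IEL DP against IEL TR they ran from 9 (no filter) to 2170 around 640. In IEL TR against LP TR they ran from 0 (no filter) to 1008 around 93. The calls of pathway list genes in these comparisons are subject to the same changes. Equal library totals moved the median of all genes by -0.14 in IEL TR against IEL SP and by 0.18 in IEL DP against IEL TR. Same-numbered libraries of different groups had residual correlations of 0.00053 to 0.0887 over 45 pairs (median 0.0385). None was above 0.1, but all 45 were above 0 and all 18 libraries correlated best with their own number. The labels do not say whether a number marks a shared batch or animal, and this was not tested. The main fits left the number out, and the replicate block is the setting that takes it in. That block took the calls of the 5 genes in IEL TR against IEL SP to 0. It left the number called in each other comparison as it was.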
